A study of Drosophila melanogaster with 2 samples.

Results

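Of the 7488 Sox102F peaks in the authors' optimal list for late Drosophila melanogaster embryos, 604 (8.07%) lay at shared promoters, that is, with the summit, the single base of highest signal, within 500 bp of annotated transcription start sites (TSSs) of 2 or more different protein-coding genes. They were chosen by position alone, from that list, which comes from an irreproducible discovery rate (IDR) analysis, and the protein-coding TSSs of Ensembl release 115 on dm6, and not by their height. They made up 29.4% of the 2053 peaks near any protein-coding TSS, and the other 1449 of these had TSSs of 1 gene only. The remaining 5435 peaks had no protein-coding TSS within 500 bp.

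The peaks come from chromatin immunoprecipitation with sequencing (ChIP-seq) on whole embryos aged 12 to 14 h of a transgenic line in which Sox102F carries green fluorescent protein (GFP) at its C-terminus. The labels disagree on the antibody, since the description states one against GFP and the antibody field names Sox102F. There was 1 group with 2 biological replicates, numbered 2 and 3 in the labels, and no other genotype, stage or treatment, so no comparison between conditions could be made. Whole embryos mix all cell types, so a peak does not say in which cells the protein was bound, and the labels do not say how the tagged gene is expressed or whether the untagged gene is still present. The deposited files are peak lists without read counts, so the depth of each library is unknown and no background in control chromatin was analysed here.

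Sox102F is the fly member of the SoxD group of transcription factors, which bind AT-rich DNA in the minor groove through a high mobility group (HMG) box and bend it. In the compact fly genome many genes with general cell functions are arranged head-to-head, transcribed away from each other from one short stretch of DNA, and proteins such as BEAF-32, Chromator and Dref are known to bind many of these stretches. A peak there cannot be given to one gene of the pair by position.

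The stretches are short enough to show whole. The 7 below are from some of the highest peaks at head-to-head pairs whose stretch is at most 300 bases, holds the summit and overlaps no annotated exon, and are printed on the plus strand of dm6 (sequence from RefSeq), from the base after the start of the minus-strand gene to the base before the start of the plus-strand gene. Capitals mark runs of 8 or more bases that are only A or T.
Art3/mRpS10: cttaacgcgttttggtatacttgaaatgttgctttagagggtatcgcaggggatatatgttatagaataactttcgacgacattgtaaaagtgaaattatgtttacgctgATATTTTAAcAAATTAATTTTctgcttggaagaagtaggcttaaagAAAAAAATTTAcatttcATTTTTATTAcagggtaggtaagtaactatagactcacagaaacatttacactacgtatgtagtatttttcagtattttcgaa
Tcs5/CHMP2B: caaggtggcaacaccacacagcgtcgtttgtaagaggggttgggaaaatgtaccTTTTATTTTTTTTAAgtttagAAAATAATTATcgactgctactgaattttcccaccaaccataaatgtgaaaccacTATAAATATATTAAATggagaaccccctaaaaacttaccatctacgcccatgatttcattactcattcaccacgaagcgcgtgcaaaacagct
CG13390/CG17294: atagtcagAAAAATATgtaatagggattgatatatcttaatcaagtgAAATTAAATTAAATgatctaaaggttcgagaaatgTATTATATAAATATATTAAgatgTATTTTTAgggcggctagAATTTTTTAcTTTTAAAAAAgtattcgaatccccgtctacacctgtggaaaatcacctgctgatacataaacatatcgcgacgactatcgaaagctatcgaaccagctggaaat
Lamtor3/fws: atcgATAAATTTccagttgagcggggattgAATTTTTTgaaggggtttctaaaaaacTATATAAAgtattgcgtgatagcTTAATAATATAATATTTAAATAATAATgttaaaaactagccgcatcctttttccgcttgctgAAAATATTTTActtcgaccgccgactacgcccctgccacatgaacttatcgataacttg
Mnat9/CG1792: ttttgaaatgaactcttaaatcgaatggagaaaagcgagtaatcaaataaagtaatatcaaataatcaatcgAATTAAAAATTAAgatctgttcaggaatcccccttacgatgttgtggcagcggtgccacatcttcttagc
Atat/Shc: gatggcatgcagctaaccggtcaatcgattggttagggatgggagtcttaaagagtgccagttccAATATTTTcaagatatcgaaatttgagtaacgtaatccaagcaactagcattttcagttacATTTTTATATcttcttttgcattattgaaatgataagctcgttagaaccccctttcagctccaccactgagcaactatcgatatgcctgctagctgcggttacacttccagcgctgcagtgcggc
Lon/PIG-F: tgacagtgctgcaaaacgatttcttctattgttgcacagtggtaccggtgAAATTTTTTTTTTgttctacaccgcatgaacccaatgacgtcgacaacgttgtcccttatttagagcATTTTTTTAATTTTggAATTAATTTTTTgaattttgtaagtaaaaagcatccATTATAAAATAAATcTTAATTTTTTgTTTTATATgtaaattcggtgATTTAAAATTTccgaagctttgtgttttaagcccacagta
They span chr3R:15229409-15229664 (Art3 and mRpS10), chr3L:5139396-5139618 (Tcs5 and CHMP2B), chr2L:8376798-8377034 (CG13390 and CG17294), chr2L:17481030-17481230 (Lamtor3 and fws), chr3R:31616161-31616302 (Mnat9 and CG1792), chr3L:9426759-9427009 (Atat and Shc) and chr3L:19612200-19612454 (Lon and PIG-F). Counted from the first base printed, the summit was base 127 of 256 between Art3 and mRpS10, base 107 of 223 between Tcs5 and CHMP2B, and base 110 of 201 between Lamtor3 and fws, near the middle of each. It was base 125 of 251 between Atat and Shc and base 126 of 255 between Lon and PIG-F. At Mnat9 and CG1792 it was base 12 of 142, close to the Mnat9 start. The longest run of A and T was 27 bases at Lamtor3 and fws, 19 at CG13390 and CG17294, and 16 at Tcs5 and CHMP2B. It was 14 at Lon and PIG-F, 13 at Mnat9 and CG1792, 11 at Art3 and mRpS10, and 10 at Atat and Shc.

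Pairs of other arrangement are shown as the summit with 50 bases to either side. At fray and CG7694 (chr3R:18584162-18584262) both genes run the same way and start at the same base. At CG31808 and Cyt-c-d (chr2L:16716274-16716374) the 5′ ends of the genes overlap.
fray/CG7694: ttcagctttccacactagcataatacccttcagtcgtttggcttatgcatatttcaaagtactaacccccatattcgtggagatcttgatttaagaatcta
CG31808/Cyt-c-d: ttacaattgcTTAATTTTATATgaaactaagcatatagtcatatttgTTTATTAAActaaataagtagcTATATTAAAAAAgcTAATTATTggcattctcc
For contrast, a pair of head-to-head stretches with no summit near both TSSs, even in the full pooled list, shown because their midpoint GC content is closest to the median of 143 such pairs of like spacing, are those between CG1463 and Fpgs1 (chrX:12611668-12611866) and between PolE2 and CG5592 (chr3L:5897436-5897637).
CG1463/Fpgs1: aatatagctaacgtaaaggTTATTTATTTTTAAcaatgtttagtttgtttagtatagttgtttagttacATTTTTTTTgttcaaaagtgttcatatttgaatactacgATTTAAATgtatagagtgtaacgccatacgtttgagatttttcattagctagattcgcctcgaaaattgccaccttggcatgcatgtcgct
PolE2/CG5592: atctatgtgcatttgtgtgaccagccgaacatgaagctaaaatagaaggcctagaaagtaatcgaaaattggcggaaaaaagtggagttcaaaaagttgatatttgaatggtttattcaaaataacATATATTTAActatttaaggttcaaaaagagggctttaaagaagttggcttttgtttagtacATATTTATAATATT
AT runs were present in them too, with the longest 14 bases in each. GC content was 30.2% between CG1463 and Fpgs1 and 29.7% between PolE2 and CG5592, against 30.1% between Art3 and mRpS10 and 38.1% between Tcs5 and CHMP2B.

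The shared promoter peaks touched 1176 different genes. Most, 578, had TSSs of 2 genes within 500 bp of the summit, and 24 had TSSs of 3. The peak with most genes had 5, PIG-M, CG42379, CG42380, CG42381 and NC2alpha, with an authors' signal value of 897 (rank 425 of the list). The peak at CG31650, CG33995, CG44000 and CG44001 had 4 genes and a signal value of 220 (rank 3441). The highest with 3 genes was at Alp12, CG13085 and Pax, with a signal value of 1254 (rank 217). The nearest 2 genes gave 581 different pairs.

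Head-to-head was the arrangement of the nearest 2 genes at 536 of the 604 peaks (88.7%, 95% Wilson interval 86.0 to 91.0%). The intervals given here and below cover the counting error of peaks, pairs or genes only. At 53 peaks (8.78%) the genes ran the same way and overlapped, and at 47 of these both start at the same annotated base, so for them the count of 2 genes rests on how the gene models were drawn. At 14 peaks (2.32%) the 5′ ends of genes on opposite strands overlapped. RabGGTb and Sbat, which run the same way without overlap, had the remaining peak, with a signal value of 155. No shared promoter peak lay at a tail-to-tail pair.

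At head-to-head pairs the summits lay near the middle of the stretch. For each gene the annotated TSS nearest to the summit was used, so where a gene has several the ends of the stretch depend on the summit. The TSSs were 305.5 bp apart at the median (range 6 to 864 bp). The summit lay between them at 452 of 536 peaks (84.3%, interval 81.0 to 87.2%) and inside one of the genes at the other 84. With TSSs over 500 bp apart a summit near both has to lie between them, and without these pairs the count was 363 of 447 (81.2%, 77.3 to 84.6%). The median distance from summit to midpoint was 51 bp, and 265 summits were within 50 bp of it. For the 327 peaks with TSSs 200 to 500 bp apart and the summit between them, where the rule allows any place in the stretch, the stretch was cut into 3 equal parts. The middle part held 222 summits (67.9%), the part next to the minus-strand gene 49 and the part next to the plus-strand gene 56.

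This position varied with the spacing of the genes, although the rule leaves less room outside the TSSs as the spacing grows. With TSSs 201 to 300 bp apart, 145 of 154 summits (94.2%) lay between them and the median distance to the midpoint was 25.3 bp. From 301 to 400 bp, 111 of 117 (94.9%) lay between them, at a median of 45.5 bp from the midpoint. Between 100 and 200 bp the count was 31 of 55 (56.4%). With TSSs at most 100 bp apart only 6 of 49 summits (12.2%) lay between them. These close-set summits stood at a median of 121 bp upstream of the farther TSS, which placed them at a median of 62 bp inside the nearer gene. In wider stretches the summit stood upstream of the nearer TSS, at a median of 102 bp for 201 to 300 bp and 130 bp for 301 to 400 bp. The labels give a size range of 200 to 800 for the sonicated DNA, with no unit, so the position of 1 summit is less certain than a median over many. Between the replicate lists the summits of the same peak differed by 20 bp at the median.

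**Figure D1:**
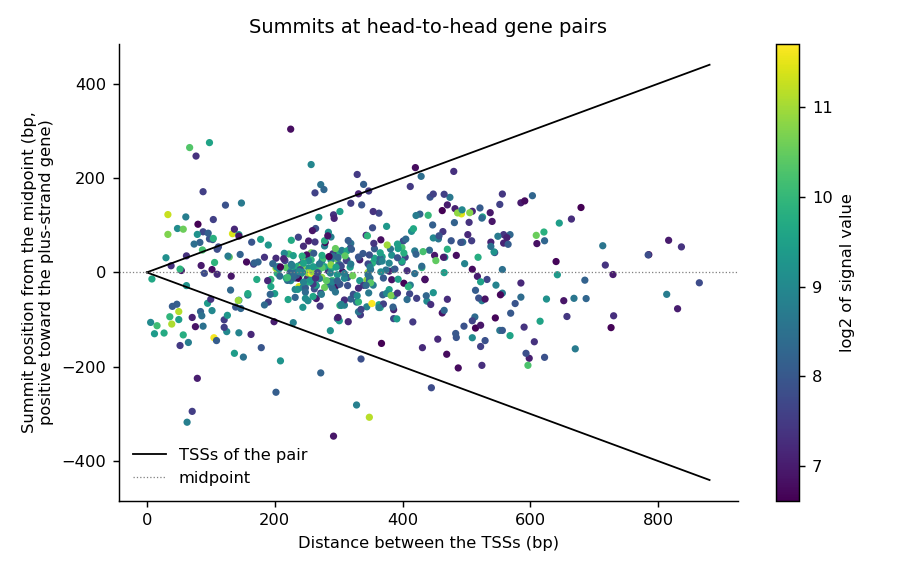
Each point is 1 of the 536 shared promoter peaks at head-to-head pairs; the x axis is the distance between the TSSs (bp), the y axis the summit's position from the midpoint (bp, positive toward the plus-strand gene) and the colour the log2 of the authors' signal value. The solid lines are the TSSs; most points lie near the dotted midpoint, and those outside the lines gather at short distances, where 6 of 49 summits with TSSs at most 100 bp apart lie between them.

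The highest shared promoter peaks were among the highest of the whole list. All of the 15 highest were head-to-head, as were 88.7% of all shared promoter peaks. The first stood between Art3, a protein arginine methyltransferase, and mRpS10, a protein of the small mitochondrial ribosomal subunit, with a pooled signal value of 3348 (rank 8 of 7488). Its signal value was 1301 in replicate 2 (rank 7 of that list) and 2059 in replicate 3 (rank 9). Its summit lay 127 bp upstream of Art3 and 130 bp upstream of mRpS10. The peak between Tcs5 and CHMP2B, a subunit of the ESCRT-III membrane remodelling complex, had a pooled signal value of 3285 (rank 10), 1274 in replicate 2 (rank 9) and 2026 in replicate 3 (rank 12). Both replicates placed each of these peaks within 2 ranks of its pooled rank.

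The peak at Chro, which encodes the chromosomal protein Chromator, and Ssl1, a subunit of the general transcription factor TFIIH, had a signal value of 3205 (rank 13), 1177 in replicate 2 (rank 13) and 2029 in replicate 3 (rank 11). Its TSSs are 105 bp apart and its summit lay outside them, 86 bp inside Chro and 191 bp upstream of Ssl1. The peak between CenG1A and mRpS23, another mitochondrial ribosomal protein gene, had a signal value of 2784 (rank 21) and stood 122 bp upstream of CenG1A and 370 bp upstream of mRpS23. The peak at CG9147 and the F-box gene Fbw5 had a signal value of 2741 (rank 23), with the summit 15 bp inside CG9147 and 149 bp upstream of Fbw5. At CG13390 and CG17294 the signal value was 2681 (rank 24). The summit was thus central in some of these stretches and beside or inside a gene in others.

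Close-set pairs among the highest peaks had the summit inside one gene. At CG8320 and Pex11ab, a gene of peroxisome division, the TSSs are 33 bp apart and the summit lay 106 bp inside CG8320 (signal value 2500, rank 34). At mRpL23, a gene of the large mitochondrial ribosomal subunit, and CG9004 they are 50 bp apart and the summit lay 58 bp inside mRpL23 (signal value 2274, rank 41). At CG11309 and CG7632 they are 39 bp apart and the summit lay 90 bp inside CG11309 (signal value 2158, rank 47). In these 3 pairs it stood 139 bp upstream of Pex11ab, 108 bp upstream of CG9004 and 129 bp upstream of CG7632. The peak at tank and CG12194 (signal value 2303, rank 39) was an exception among wide pairs, since its TSSs are 348 bp apart and its summit lay 133 bp inside tank.

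The other high peaks had the summit between the TSSs. Lamtor3, a subunit of the Ragulator complex at lysosomes, and fws, a subunit of the Golgi tethering complex COG, had a signal value of 2236 (rank 43). Pdrg1 and Pal1, an enzyme that amidates peptides, had 2026 (rank 56), with the summit exactly 173 bp from either start. CG18428 and eIF4EHP, a cap-binding protein that represses translation, had 2012 (rank 60). Mnat9 and CG1792 had 1964 (rank 64). Below these, Atat, an acetyltransferase of alpha-tubulin, and Shc, an adaptor of receptor tyrosine kinases, had 1867 (rank 77), and the mitochondrial protease gene Lon and PIG-F, a gene of GPI anchor synthesis, had 1775 (rank 88).

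The highest values of pairs that are not head-to-head were below those of head-to-head pairs, which are many more. The highest same-direction pairs were Sesn, which encodes the stress-induced regulator sestrin, and CG46429 (signal value 1879, rank 75), CG8788 and CG44286 (1516, rank 132), and the kinase gene fray and CG7694 (1433, rank 153). In each of these 3 the genes share their annotated start, with the summit 221 bp upstream of it at the first and the second and 261 bp upstream at the third. The highest pairs with overlapping 5′ ends were CG31808 and Cyt-c-d, a cytochrome c gene of the male germ line (1791, rank 84), Adck1 and CG4741 (1627, rank 112), and CG4658 and CG5846 (1385, rank 169). The median signal value was 327 for head-to-head, 297 for same-direction overlapping and 263 for overlapping 5′ ends. Their upper quartiles were 648, 689 and 835, in the same order. The top 10% of the list held 23.9%, 28.3% and 28.6% of them, so high values were not confined to head-to-head pairs. The values for overlapping 5′ ends rest on 14 peaks, and no test of the differences was made.

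Shared promoter peaks stood high in the list. Their median signal value was 320 (quartiles 188 to 661), against 247 for promoter peaks at 1 gene, 186 for peaks with no protein-coding TSS nearby and 204 for all 7488. The top 10% of the list held 147 of them (24.3%, interval 21.1 to 27.9%), where by definition 10.0% of all peaks stand in it. The same class held 16.7% of promoter peaks at 1 gene (14.9 to 18.7%) and 6.62% of peaks with no TSS nearby (5.99 to 7.32%). Read the other way, shared promoter peaks were 19.6% of the top 10% and 3.48% of the lowest 10%. Promoter peaks at 1 gene went from 32.3% to 14.6%, so among promoter peaks alone the shared ones went from 37.8% in the top 10% to 19.3% in the lowest 10%.

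**Figure D2:**
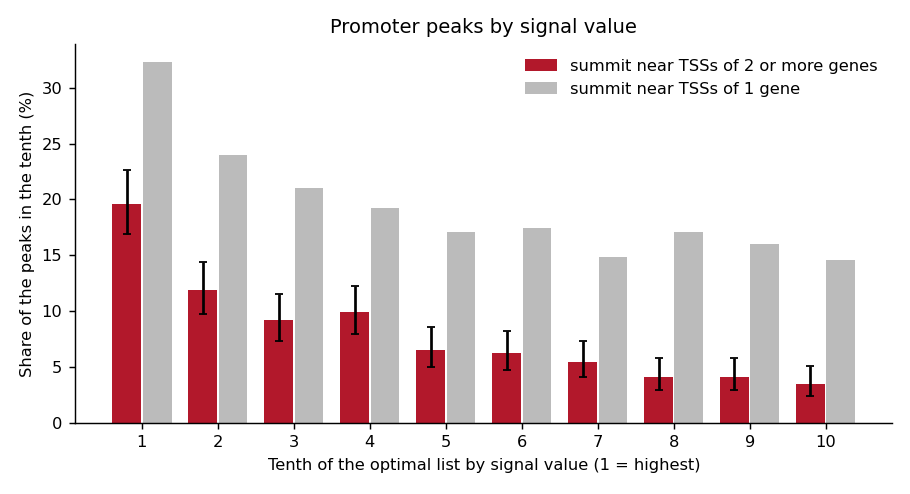
The bars give the share (%) of peaks in each of 10 equal classes of the optimal list by signal value (x axis, 1 is the highest) whose summit lies within 500 bp of TSSs of 2 or more genes (red, with 95% Wilson intervals) or of 1 gene (grey). The red bars go from 19.6% in the highest class to 3.48% in the lowest, the grey bars from 32.3% to 14.6%.

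The 2 replicates did not list these peaks equally. The summit lay in a peak of both replicate lists at 518 of the 604 (85.8%, interval 82.7 to 88.3%), while the share for all 7488 was 94.4%. For promoter peaks at 1 gene it was 91.2% (89.7 to 92.6%), and for peaks with no TSS nearby 96.1% (95.6 to 96.6%). The shortfall was in replicate 2, whose list held 522 (86.4%), against 599 (99.2%) for replicate 3. Of all 7488 peaks the replicate 2 list held 95.5% and the replicate 3 list 98.8%. Of promoter peaks at 1 gene they held 92.3% and 98.9%. Both replicate lists stop at 30000 peaks, so their equal length does not show that the libraries are alike. Over the 518 peaks in both, the signal values of the replicates had a Spearman correlation of 0.920 across peaks, which share the libraries and are not replicates.

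Of the 82 shared promoter peaks with no replicate 2 peak at the summit, 81 were in the replicate 3 list, and for 70 the nearest replicate 2 peak was over 1000 bp away. It was that far for 204 of the 338 such peaks of the whole list, and for 72 of 111 promoter peaks at 1 gene. The 82 were not confined to low peaks. In the top 10% of the list 10 of 147 were missing (6.80%, interval 3.74 to 12.1%), against 3 of 242 promoter peaks at 1 gene (1.24%, 0.422 to 3.58%) and 3 of 360 with no TSS nearby (0.833%, 0.284 to 2.42%). The highest was at Cp190, a cofactor of insulator proteins, and CG4338, with a pooled signal value of 1366 (rank 175) and 832 in replicate 3 (rank 183 of that list), and its nearest replicate 2 peak was 1657 bp away. The next, at Ing5, a chromatin reader gene, and CG7099, had a pooled signal value of 1365 (rank 176) and 851 in replicate 3 (rank 176), with the nearest replicate 2 peak 7638 bp away. The cause was not tested, and a missing row does not show that the protein was absent there.

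**Figure D3:**
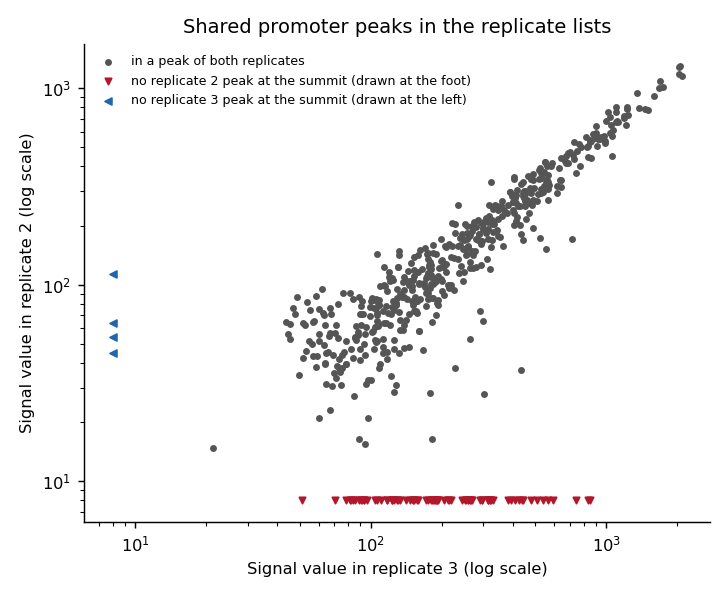
Authors' signal values of the shared promoter peaks in replicate 3 (x axis, log scale) and replicate 2 (y axis, log scale), 1 point per peak. Grey points are the 518 in peaks of both; red triangles at the foot are those with a replicate 3 peak but no replicate 2 peak at the summit (81), which reach a replicate 3 value of 851, and blue triangles at the left those with no replicate 3 peak.

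The bases under the summits were rich in A and T. From 50 bp before to 50 bp after the summit the median GC content was 27.7% (quartiles 22.8 to 32.7%). Windows of that width centred 300 bp left and right of it had 46.0% (41.6 to 51.0%). GC content was lower at the summit at 552 of 604 peaks (91.4%). Promoter peaks at 1 gene had 30.7% at the summit and 43.6% at the sides, and peaks with no TSS nearby 29.7% and 45.1%. A dip was thus found in all 3 sets, and it is not particular to shared promoters. The lowest GC content of any such window was also taken at annotated head-to-head pairs with TSSs at most 1000 bp apart. Its median was 24.8% in pairs without an optimal summit and 21.8% in those with one. At head-to-head peaks the TSSs were 305.5 bp apart at the median, so windows 300 bp or more from a central summit mostly lie inside the genes. In the mean profile the shared promoter peaks went from 27.7% at the summit to 38.9% at 200 bp and 50.1% at 600 bp on the left side, while promoter peaks at 1 gene had 31.0%, 42.3% and 42.9% at the same points.

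**Figure D4:**
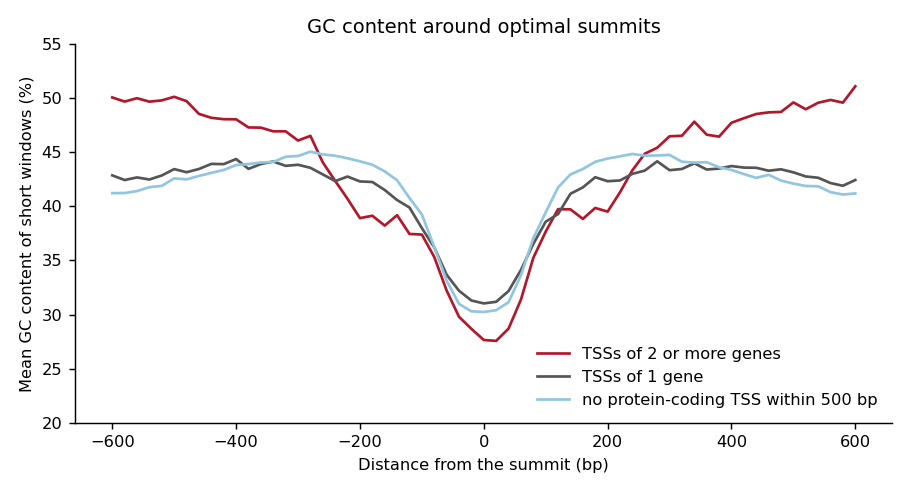
Mean GC content (%, y axis, not starting at 0) of short windows (21 bp) at distances from the summit (bp, x axis) for shared promoter peaks (red), promoter peaks at 1 gene (grey) and peaks with no protein-coding TSS within 500 bp (blue). All 3 lines dip at the summit, the red one from 50.1% at 600 bp on the left to 27.7%.

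The next values are shares of peaks that hold a short word, on one strand or the other, in the same window around the summit. The Sox word ACAAT was found at 221 shared promoter peaks (36.6%, interval 32.8 to 40.5%), against 33.9% of all 7488 peaks, 33.5% of promoter peaks at 1 gene and 23.7% of all protein-coding TSSs in windows of the same width. At the sides of the same peaks, 300 bp out, it was found in 21.6% of windows. At the midpoints of close head-to-head pairs (TSSs at most 1000 bp apart) without an optimal summit, it was found in 28.3%. Its share at shared promoter peaks is thus near that of the whole list. The AT-only word TATAAA was found at 33.9% of shared promoter peaks, 26.9% of all peaks and 8.28% of side windows, and TAATTA, which can overlap it in a run of A and T, at 18.9%, 11.9% and 4.22%. At the midpoints of pairs without a summit TATAAA was found in 20.6% and TAATTA in 9.54%. Words made only of A and T become more frequent as GC content falls, and these shares were not corrected for it.

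Words known from the promoters of general genes in flies were rare at the summits. TATCGATA, the DNA replication-related element (DRE) that Dref binds, was found within 50 bp at 12 shared promoter peaks (1.99%, interval 1.14 to 3.44%), against 0.588% of all peaks, 1.38% of promoter peaks at 1 gene and 4.48% of all TSSs. The core letters of Motif 1, GGTCACAC, were found at 4 (0.662%), against 0.307% of all peaks and 4.67% of TSSs. At the midpoints of close head-to-head pairs without a summit the DRE was found in 5.36% and GGTCACAC in 3.27%. The GAGA word GAGAGA, which is not one of these general promoter words, was found at 4 (0.662%), against 2.64% of all peaks. In the wider window of 100 bp to either side the DRE was found at 47 shared promoter peaks (7.78%, 5.90 to 10.2%), 2.62% of promoter peaks at 1 gene (1.92 to 3.58%) and 1.42% of all peaks (1.17 to 1.71%). For the midpoints of pairs without a summit the wider window was not counted. Around points 300 bp from the summits of shared promoter peaks, the narrower window held the DRE in 1.66%. One of the 47 was that between Atat and Shc, where the letters tatcgata begin at base 202 of the stretch printed above and the summit is base 125. Between Lamtor3 and fws they begin at base 189 and the summit is base 110. A match is only a run of letters and does not show that Dref is bound.

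Most close head-to-head pairs of the genome had no summit. The annotation holds 2667 such pairs with TSSs at most 1000 bp apart, and 559 of them (21.0%, interval 19.5 to 22.5%) had an optimal summit within 500 bp of both TSSs. By spacing, the share was 16.3% of 429 pairs up to 100 bp apart, 16.8% of 357 over 100 and up to 200 bp, 31.4% of 542 from 201 to 300 bp (27.6 to 35.4%), 28.0% of 400 from 301 to 400 bp and 25.1% of 267 from 401 to 500 bp. It was 11.9% of 672 over 500 bp apart, where the stretch within 500 bp of both TSSs narrows to nothing by definition. That stretch narrows with spacing in all classes, and the effect of its width on these shares was not tested.

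**Figure D5:**
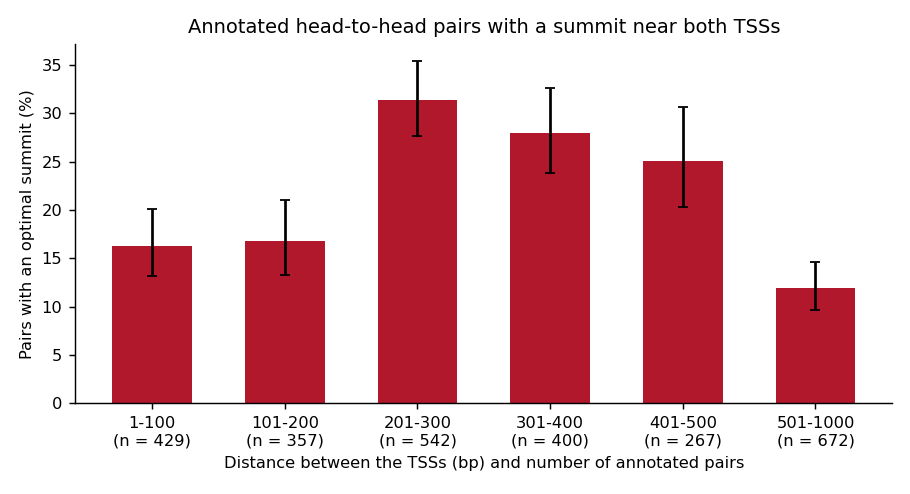
Share (%, y axis) of annotated head-to-head pairs with an optimal summit within 500 bp of both TSSs, by the distance between the TSSs (bp, x axis, with the number of pairs); bars are shares and lines 95% Wilson intervals. The highest bar is that of pairs 201 to 300 bp apart, at 31.4%.

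Median base composition at the midpoint was set side by side for pairs with and without a summit, and the gap between them varied with spacing. Over all pairs the median GC content was 27.7% in the 559 pairs with a summit and 33.7% in the 2108 without. Among pairs 201 to 300 bp apart it was 23.8% in the 170 with a summit and 27.7% in the 372 without. It was 44.6% in either group at 1 to 100 bp, 36.1% and 41.6% over 100 and up to 200 bp, 25.7% and 28.7% at 301 to 400 bp, 27.7% and 28.7% at 401 to 500 bp, and 28.2% and 32.7% over 500 bp. Pairs were also classed by the lowest GC content of any window of that width at the stretch. Where the stretch is shorter than the window, this takes in bases of the genes. Of the 868 pairs at or below 20%, 26.6% had a summit (23.8 to 29.7%). It was 11.2% of the 233 pairs between 35 and 40% (7.73 to 15.8%), and 15.5% of the 148 above 45% (10.6 to 22.2%). These classes differ in spacing, with medians of 419, 111 and 62 bp between the TSSs. Within pairs 201 to 400 bp apart, 31.6% of the 841 at or below 30% had a summit (28.6 to 34.8%), against 19.0% of 79 between 30 and 40% (11.9 to 29.0%). Most AT-rich pairs therefore had no optimal summit. The letters ACAAT occurred somewhere in the stretch in 72.6% of pairs with a summit (68.8 to 76.2%) and in 74.1% without (72.2 to 76.0%), and these intervals overlap.

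By gene, 1291 of the 5052 genes with a close head-to-head partner (25.6%, interval 24.4 to 26.8%) had an optimal summit within 500 bp of a TSS, against 1071 of the 8916 without one (12.0%, 11.4 to 12.7%) and 16.9% of all 13968 protein-coding genes. A gene of a pair also counts when the summit is at its partner's start, and how much of the difference this makes was not tested.

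Of the 16 gene lists examined, several of general cell functions had larger shares of genes at shared promoter peaks than all genes together. These lists also hold more genes with a close head-to-head partner, 51.2% to 86.4% against 36.2% of all genes, and the shares among genes with a partner are given after the lists. Of all protein-coding genes 8.42% were at a shared promoter peak. Among genes of the protein-making machinery it was 17 of 73 mitochondrial ribosomal protein genes (23.3%, interval 15.1 to 34.2%), 18 of 86 cytoplasmic ribosomal protein genes (20.9%, 13.7 to 30.7%) and 15 of 86 translation factor and tRNA synthetase genes (17.4%, 10.9 to 26.8%). The highest peaks of the cytoplasmic ribosomal list were at CG8132 and RpL34b (signal value 878), RpS27 and Nup37 (666), and CG17271 and RpS20 (643), well below those at mRpS10, mRpS23 and mRpL23. After eIF4EHP, the translation list was led by IleRS and SerRS, which charge tRNAs with isoleucine and serine, paired with Hem (926) and CG17260 (799).

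Genes of the nucleus gave 6 of 18 chromatin and insulator genes (33.3%, interval 16.3 to 56.3%), 6 of 27 nuclear pore and transport genes (22.2%, 10.6 to 40.8%) and 13 of 66 general transcription factor and Mediator genes (19.7%, 11.9 to 30.8%). The chromatin list was led by Chro, by brm, the ATPase of the SWI/SNF remodelling complexes, paired with Arl1 (signal value 1548, rank 123), and by Cp190. The transcription list was led by Ssl1, by Polr2B, an RNA polymerase II subunit, paired with 140up (906), and by the Mediator gene MED30, paired with Rev1 (841). The nuclear pore list was led by Nup37, then Nup98-96 paired with mbc (478), and the importin gene Kap-alpha3 paired with Son (441). Splicing and RNA decay had 6 of 44 (13.6%, 6.40 to 26.7%), led by the splicing factor gene U2af50 paired with PIG-Q (918), and 1 of its 3 highest, Rrp1, is a DNA repair nuclease that entered by its symbol. DNA replication and repair had 6 of 46 (13.0%, 6.12 to 25.7%), led by RnrS, a subunit of ribonucleotide reductase, paired with CG34231 (760). In that list 1 of the 3 highest, spn-E, is a helicase gene of the piRNA pathway and not of replication or repair.

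The vesicle traffic list had 16 of 108 (14.8%, interval 9.33 to 22.7%), led by CHMP2B, the coat gene alphaCOP paired with CG13919 (signal value 1461) and Vps33B paired with Fur1 (1183). The respiratory chain list had 11 of 86 (12.8%, 7.30 to 21.5%), led by ND-MWFE (757) and ND-ASHI (735), both subunits of complex I. The proteasome list had 3 of 48 (6.25%, 2.15 to 16.8%), which was near the share of all genes, with Rpn3 highest (723). The interval of the respiratory chain list and those of splicing and of DNA replication and repair also hold 8.42%.

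The 5 lists of developmental genes varied. None of 27 patterning transcription factor genes was at a shared promoter peak (upper bound of the interval 12.5%), and none of 23 neuronal differentiation genes (14.3%), and both intervals hold the 8.42% of all genes. The muscle list had 1 of 21, mbc, a regulator of myoblast fusion, whose shared promoter is that with Nup98-96. The EGFR, Wnt, Dpp and Hedgehog list had 3 of 39 (7.69%), Krn and spi, which encode EGFR ligands, and Apc, a negative regulator of Wnt signalling, with signal values of 606, 205 and 121. The Notch list had 2 of 16 (12.5%), the target gene E(spl)mdelta-HLH with CG43116 (572) and the coactivator gene mam with RN-tre (238). Lists differ in how many genes have a partner at all. A close head-to-head partner was annotated for 58 of the 73 mitochondrial ribosomal protein genes, for none of the 27 patterning genes and for 1 of the 23 neuronal genes. Among genes with a partner, 22.1% of all 5052 were at a shared promoter peak. By this measure the share was 46.2% of 13 chromatin and insulator genes, 34.0% of 53 cytoplasmic ribosomal, 29.3% of 58 mitochondrial ribosomal, 27.7% of 47 general transcription and 26.1% of 23 nuclear pore genes. It was 15 of 50 translation genes, 11 of 44 respiratory chain genes and 24.2% of 66 vesicle traffic genes. It was lower than that of all genes with a partner for DNA replication and repair (18.8% of 32), splicing and RNA decay (15.8% of 38) and the proteasome (11.5% of 26). The Notch list had 33.3% of 6 genes, the EGFR, Wnt, Dpp and Hedgehog list 23.1% of 13, and the muscle list 1 of 5. No list was tested.

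Some shared promoters joined 2 of the lists. These were Chro and Ssl1, RpS27 and Nup37 (signal value 666), Dref, the factor that binds the DRE, and RpL13 (296), and the exocyst gene Sec3 and COX7B, a respiratory chain subunit (221), among others. RPA1 and Mcm2, a subunit of the replicative helicase, were the pair with both genes in 1 list (236).

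Shared promoter peaks were unevenly spread over the chromosome arms. The X chromosome held 64 of them (10.6%) and 15.7% of protein-coding genes, and 18.1% of its promoter peaks were shared, against 28.2% to 34.4% on 2L, 2R, 3L and 3R. Close head-to-head partners were annotated for 35.7% of X-linked genes, near the 35.9% to 37.0% of those arms. Of the 403 close head-to-head pairs on X 13.9% had a summit, against 16.0% on 2R, 22.6% on 2L, 24.7% on 3R and 25.5% on 3L. Chromosome 4 held none, with 11 annotated pairs and 6 optimal peaks in all. No cause of the difference between arms was tested.

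The limit of 500 bp cut through a continuous range. Just inside it were the peaks at Nepl19 and Nepl20, with the farther TSS 497 bp from the summit (signal value 416), and at CG14968 and ZnT63C, with 495 bp (1228). Just outside were those at CG15097 and CG15082, with 506 bp (284), and at CG43103 and CG43107, with 507 bp (150).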

How the data were processed

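ChIP-seq peak lists from 2 biological replicates of 1 group were analysed. The authors deposited them as narrowPeak tables on dm6, per the labels. Each row holds an interval, a summit, a signal value, which is the authors' score of the peak with no depth scaling stated, and the −log10 of a q-value. In the optimal list the deposited −log10 q-value is 4.18 in all 7488 rows, so it was not used. Per the file lists deposited with them, replicate peaks came from each replicate's alignments and a control, pooled peaks from both, and the optimal list from these. Aligner and peak caller were not given in the sources used here. This optimal list equals the 7488 highest pooled peaks, and each other list stops at 30000 rows. Among the shared promoter peaks 16 rows repeat the interval of another and 1 summit lies outside its interval, and all were counted.

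TSSs are the 5′ ends of all protein-coding transcripts in Ensembl release 115 on 7 arms. Distances, orientation, words and GC content were computed with Python 3.11.15, numpy 2.4.6 and pandas 2.3.3 on RefSeq sequence, Wilson intervals at 95% with scipy 1.17.1, and figures with matplotlib 3.10.9. The classification of peaks was checked on made-up gene arrangements of known type. A peak was in a replicate when its summit lay in a peak of that list. Named peaks are the 15 highest, the 3 highest of each arrangement, those with most genes, up to 3 of each gene list, and those beside the 500 bp limit; the gene names of 1 such peak go unreported here. The lists matched by symbol, and 4 symbols were not in the annotation. Members and lists were chosen with earlier results of these data known, so nothing was tested. Other windows, TSS sets, peak lists and single replicates were tried as alternatives.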

Additional observations from a re-analysis of the deposited data

How the results depend on the processing

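Of 72 recomputed values 53 stayed within the interval of the reported value, or within 1.5 times a count, and 19 moved. All pooled peaks gave 920 shared promoter peaks in place of 604, with 85.8% head-to-head, 80.7% of these with the summit between the TSSs, 72.7% in both replicates and 28.5% of annotated pairs with a summit. A window of 250 bp gave 382 peaks, 777 genes in place of 1176, 30.1% in the top 10% and 13.8% of pairs. A window of 1000 bp gave 85.0% head-to-head and 25.7% of pairs, and peaks above the median signal 15.6% of pairs. With 1 TSS per gene 80.5% of head-to-head summits lay between the TSSs. Requiring an overlap of at least 50% of both peaks gave 68.9% in both replicates. Words within 100 bp in place of 50 bp gave 7.78% for the DRE and 55.1% for ACAAT, in windows of about double width. With the 7488 highest peaks of 1 replicate in place of the optimal list, counts ran from 538 to 782 peaks and from 1047 to 1551 genes, head-to-head from 86.8% to 90.0%, summits between the TSSs from 83.5% to 86.5%, the top 10% from 18.4% to 25.3%, the DRE from 2.56% to 2.60%, ACAAT from 33.3% to 35.2%, and pairs with a summit from 18.6% to 29.1%. The lower counts of peaks and genes came from the replicate 2 list. A share in both replicates cannot be taken from 1 replicate. No paired analysis was possible because there is 1 group. Without read counts, what depth limits is unknown.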

Other observations

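Over the whole stretch between the TSSs, 13 words were compared between the 559 annotated head-to-head pairs with a summit and the 2108 without, and the words named here were picked after their values were seen. The E-box word CAGCTG occurred in 35.4% of pairs with a summit (95% Wilson interval 31.6 to 39.5%) and in 27.5% of those without (25.7 to 29.5%). The GATA-type word AGATAA occurred in 19.0% with a summit (15.9 to 22.4%) and 27.1% without (25.3 to 29.1%). Among pairs 201 to 400 bp apart the shares were 40.1% and 27.9% for CAGCTG and 17.0% and 25.3% for AGATAA. The DRE occurred in 24.9% of pairs with a summit (21.5 to 28.6%) and in 20.8% without (19.1 to 22.6%). Near the summits themselves CAGCTG was found at 3.48% of shared promoter peaks and at 2.24% of all optimal peaks. It was found in 6.87% of windows 300 bp to the side and at 7.02% of midpoints of pairs without a summit. AGATAA was found at 7.95% of shared promoter peaks, 9.05% of all optimal peaks, 2.98% of side windows and 7.73% of those midpoints.

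Of the annotated head-to-head pairs 25 had 2 or more optimal summits within 500 bp of both TSSs. The 3 with the highest signal were Elp6 and Dic1 (highest signal value 1335), Vha100-2, a subunit of the vacuolar proton pump, and Vti1b (1283), and Brf, a factor of RNA polymerase III, and sds22 (932). A TSS of a non-coding gene or transposable element lay within 500 bp of the summit at 16 of the 604 shared promoter peaks and at 401 of all 7488 peaks.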
